A study of Mus musculus with 9 samples.

Results

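The mitochondrial ribosomal protein genes were taken as the protein-coding genes of the deposited expression table whose symbol starts with Mrpl or Mrps and a digit, which gave 78 of 54532 genes. They were read in RAW 264.7 cells, a mouse macrophage line that the labels list as wild type with ascites as the tissue, in 9 libraries of poly-A selected RNA. The LPS + H-CDs group (3 libraries) received lipopolysaccharide, a bacterial cell wall component that activates macrophages, at 1 µg/ml and, in addition, H-CDs at 400 µg/ml. The LPS group (3 libraries) received LPS at 1 µg/ml alone, and the design text gives 6 h of exposure for both. The control group (3 libraries) was untreated, and its time in culture is not stated. H-CDs is the submitters' name for a supplement that the labels do not spell out, and the series title concerns a fruit-derived nanozyme with superoxide dismutase activity. Nothing in the labels says whether replicate libraries are separate cultures, so the p-values cover the spread between these libraries alone, which may be technical.

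Mitochondria keep ribosomes of their own, which translate the few messenger RNAs of the mitochondrial genome, all of them for membrane subunits of the respiratory chain and ATP synthase. The ribosomal RNAs of these ribosomes are made inside the organelle, whereas every protein of the large and the small subunit is encoded in the nucleus, made in the cytosol and imported. Some of these proteins descend from bacterial ribosomal proteins, and others were added in the mitochondrial lineage and have no bacterial counterpart.

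Of the 78 genes, 51 encode proteins placed in the large subunit (30 with a bacterial counterpart and 21 without) and 26 encode proteins of the small subunit (16 with and 10 without). Mrps30 and Mrps18a carry names of the small subunit but their proteins, mL65 and mL66, sit in the large one and were counted there. The remaining gene, Mrps36, encodes a subunit of the oxoglutarate dehydrogenase complex and not of the ribosome despite its symbol. The genes lie on 17 chromosomes. Between 14377161 and 16069968 reads per library could be recovered from the deposited FPKM values, that is, fragments scaled by gene length and library size, and 1 tested member held between 126 and 2870 reads in a library (median 568). All levels below are FPKM, which are per length as given in the deposited table. How far these lengths match the transcripts in these cells was not examined, so levels of different genes compare only roughly.

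Of the markers of macrophages, 6 of 7 passed the filter on low values (1 FPKM or more in 3 or more of 9 libraries) and Mrc1 did not. No marker of T cells, B cells, neutrophils, fibroblasts, epithelium or endothelium passed. Within its group LPS + H-CDs replicate 1 differed from the other libraries, with 0.490% of reads on mitochondrially encoded messenger RNAs where replicates 2 and 3 had 1.62% and 1.64%. For the comparisons that hold this group, members whose call changed without it are named.

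In all, 77 of the 78 members passed the filter and were tested in a limma fit over 11707 genes, and a gene is called where its Benjamini-Hochberg adjusted p over all tested genes is under 0.05. Mean levels over the 9 libraries ran from 3.13 to 63.3 FPKM with a median of 16.7, against a median of 7.63 over all tested genes. The median was 18.2 FPKM for genes of the large subunit and 11.7 for genes of the small subunit. The highest means belonged to Mrpl52 (63.3), Mrpl2 (53.7), which encodes the counterpart of the bacterial core protein uL2, and Mrps21 (49.7), which encodes bS21m of the small subunit. The lowest tested means belonged to Mrpl48 (3.13) and Mrps35 (3.28). The processed pseudogene Mrpl48-ps was at 9.49 FPKM, so reads that match both it and Mrpl48 make the level of Mrpl48 uncertain. Mrpl53 is listed at 0 reads in every library, and 88.0% of its exon bases are shared with Gm42688 on the same strand in GENCODE M21. Gm42688 itself was at 0.187 FPKM with LPS + H-CDs, 0.106 with LPS and 0.386 in control, and the cause of the 0 was not tested. The median coefficient of variation within a group was 10.1% for the members and 9.86% for all tested genes.

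Setting LPS + H-CDs against LPS asks what differed when cells under LPS also received the supplement. Mrps23 and Mrps35, both encoding small subunit proteins without a bacterial counterpart, were the only 2 called, both higher with H-CDs, and the other 75 tested members did not pass. The 2 called higher of 77 compare with 6.54% called higher over all tested genes, and the 0 called lower by limma with 9.05% called lower. At an unadjusted p under 0.05, limma had 6 members higher and 3 lower. DESeq2 on the recovered reads called 2 higher and 2 lower, and edgeR called 3 higher and 0 lower. The median log2 fold change of the members was 0.03, against -0.01 over all tested genes, and single values ran from -0.41 to 0.28.

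Mrps23 had 32.0, 32.2 and 28.1 FPKM in the LPS + H-CDs libraries, 25.0, 27.4 and 25.8 with LPS alone, and 37.1, 38.0 and 38.2 in control. All LPS + H-CDs libraries lay above all LPS libraries and below all control libraries. Its log2 fold change on the log2(FPKM + 1) scale for LPS + H-CDs against LPS was 0.23 ± 0.0669 (SE), with a limma adjusted p of 0.0491. Leaving out any library other than LPS + H-CDs replicate 3 ended this call, with adjusted p of 0.0634 to 0.158 and log2 fold changes of 0.20 to 0.26.

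Mrps35 had 2.91, 2.76 and 2.61 FPKM in the LPS + H-CDs libraries, 1.96, 2.12 and 2.19 with LPS alone, and 4.69, 4.72 and 5.60 in control. Here too the LPS + H-CDs libraries lay between both other groups without overlap. The log2 fold change for LPS + H-CDs against LPS was 0.28 ± 0.0819 (SE, limma adjusted p = 0.0462). Leaving out any library other than control replicate 3 ended the call, with adjusted p of 0.0546 to 0.140. In the authors' deposited table the adjusted p of Mrps35 was 0.0179 and that of Mrps23 was 0.0951.

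Further members lay near the threshold. Mrps6, which the rule for named genes given below did not pick in this comparison, lay in groups that did not overlap. It had 17.9, 17.3 and 18.7 FPKM with LPS + H-CDs and 14.3, 14.2 and 15.6 with LPS. Its log2 fold change was 0.27, with a limma adjusted p of 0.0603. Mrps6 was called higher in 7 of 17 alternative settings, against 6 of 17 for Mrps23 and 6 of 17 for Mrps35. In the fit of the 2 groups alone and with a replicate block it was the only member called. Mrpl58, whose protein is a peptidyl-tRNA hydrolase that frees stalled ribosomes, had 7.09, 7.71 and 6.89 FPKM with LPS + H-CDs and 5.26, 6.12 and 6.53 with LPS (log2 fold change 0.24, limma adjusted p = 0.0901). Mrpl20, which was picked out after its values were seen, had 29.7, 29.1 and 29.4 FPKM with LPS + H-CDs and 32.2, 36.5 and 40.9 with LPS (log2 fold change -0.30, limma adjusted p = 0.0620, against 0.0400 in the authors' deposited table). It was called lower without LPS replicate 1 or control replicate 3.

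Mrpl52 showed the lowest log2 fold change, and its value turned on LPS + H-CDs replicate 1. It had 91.3, 64.9 and 55.3 FPKM in the LPS + H-CDs libraries and 80.3, 98.4 and 99.0 in the LPS libraries, so that replicate 1 fell among the LPS libraries and replicates 2 and 3 below them. The log2 fold change was -0.41 with a limma adjusted p of 0.135, and without LPS + H-CDs replicate 1 it was -0.61 with an adjusted p of 0.0143. Without that library 0 members were called higher and 1, Mrpl52, was called lower, against 5.2% and 7.59% of all tested genes.

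For 73 of the 77 members the 95% interval of the difference between LPS + H-CDs and LPS lay within 1.5-fold either way. This was on the log2(FPKM + 1) scale, which understates changes of low genes, and also held for 8908 of the 11707 tested genes. Cytosolic ribosomal protein genes, chosen by symbol for comparison, had 0 called higher and 1 called lower of 79 tested by limma, as by DESeq2 and edgeR and with 0 higher also at an unadjusted p under 0.05, with a median log2 fold change of -0.07.

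**Figure D1:**
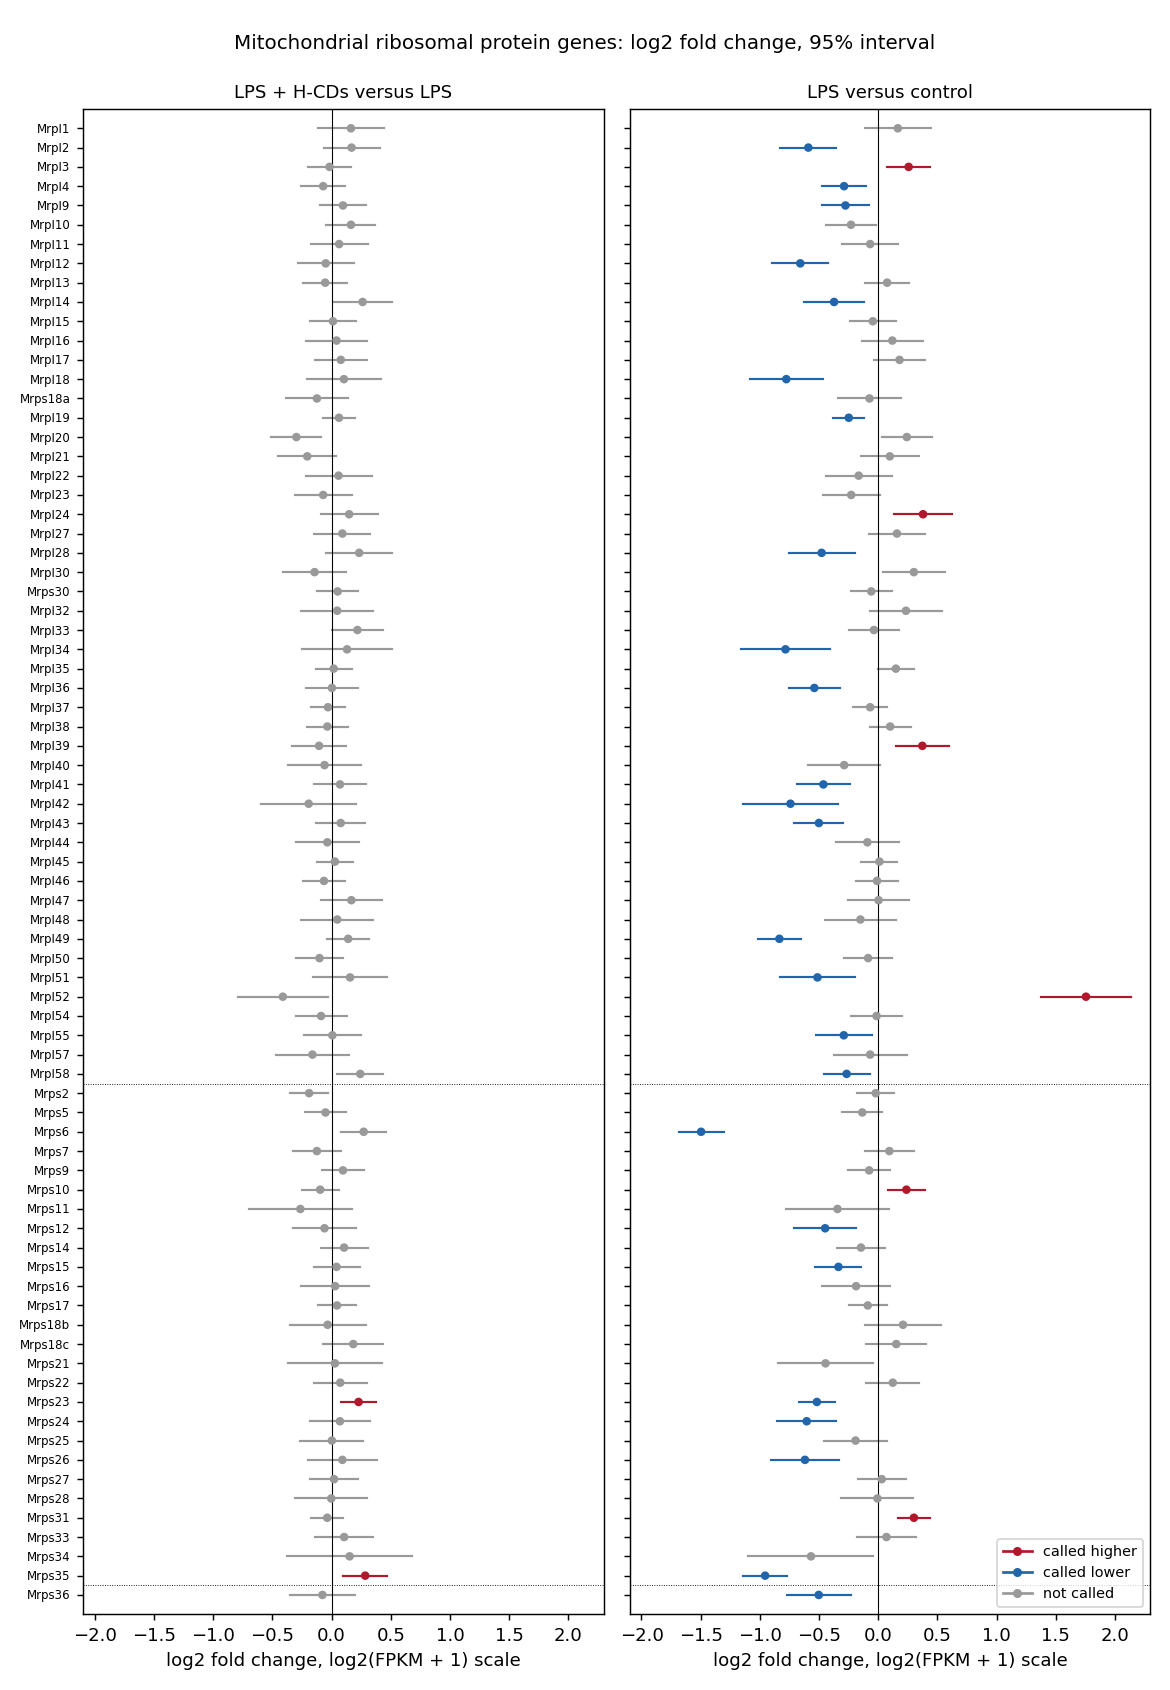
Log2 fold change on the log2(FPKM + 1) scale (points, x axis) with 95% intervals (lines) of the 77 tested genes, for LPS + H-CDs versus LPS at left and LPS versus control at right. Genes of the large subunit (Mrps18a and Mrps30 included) stand above the first dotted line, genes of the small subunit above the second and Mrps36 below it; at left 2 genes are called, at right 6 are called higher and 25 lower.

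The comparison of LPS with control shows how these genes differed between cells given LPS and untreated cells, whose time in culture is not stated. With LPS some of the genes fell and a few rose, Mrpl52 by 3.47-fold in mean FPKM, while Mrps6 fell to 14.7 FPKM with LPS, against 43.5 FPKM in control. Of the 77 members, 6 were called higher, 25 lower and 46 did not pass. Over all tested genes 28.8% were called higher and 26.8% lower, so as deposited the share of lower members is near that of the whole table and the share of higher members is under it. The median log2 fold change of the members was -0.09, against 0.03 over all tested genes. Of the called members 11 changed at least 1.5-fold on the log2(FPKM + 1) scale and 2, Mrpl52 and Mrps6, at least 2-fold. Mrps35 fell just short of 2-fold on that scale, whose pseudocount of 1 understates changes of low genes. Under the 17 alternatives its log2 fold change ran from -1.46 to -0.89.

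The size of the members' median shift and the counts called depended on how libraries were scaled to each other. Rescaled to TPM, 1 member was higher and 59 were lower (76.6% of members called lower, against 48.3% of all tested genes), and scaled to total reads 1 was higher and 52 were lower (67.5% against 44.3%). As deposited the shares called lower were 32.5% of members and 26.8% of all tested genes. These scales moved the median over all tested genes to -0.30 and -0.22. Relative to that median, the members' median was lower by a like amount on every scale, with a difference of -0.11 as deposited, -0.13 in TPM and -0.14 by total reads. With single libraries left out, the deposited difference ran from -0.07 (without control replicate 3) to -0.17 (without control replicate 1). The libraries also overlapped: the members' median deviation from their means over all libraries was 0.04 in LPS replicate 3 and -0.001 in control replicate 1. In bulk RNA, fewer cells of a type and less RNA per cell cannot be told apart.

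Mrpl52 encodes mL52, a large subunit protein without a bacterial counterpart (ENSMUSG00000010406, chr14:54426909-54429756, plus strand, GRCm38). Its values, given above for the LPS + H-CDs and LPS libraries, were 23.95, 28.9 and 27.2 FPKM in the control libraries. Every library with LPS lay above every control library. The group means were 70.5 ± 18.6 FPKM with LPS + H-CDs, 92.6 ± 10.7 with LPS and 26.7 ± 2.52 in control (SD, n = 3 each), and the log2 fold change for LPS against control was 1.75 ± 0.168 (SE, limma adjusted p = 1.92e-05). No other annotated gene shares its exon bases. The nearest tested genes on either side were Slc7a7, which lies 9129 bases upstream on the other strand with a log2 fold change of 0.90 for LPS against control, and Lrp10, which lies 34381 bases downstream with 0.79; these genes were looked up after the values of Mrpl52 were seen.

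Mrps6 encodes bS6m, a small subunit protein with a bacterial counterpart (ENSMUSG00000039680, chr16:92058270-92112227, plus strand). It had 39.4, 41.9 and 49.1 FPKM in the control libraries, above all libraries with LPS. The log2 fold change for LPS against control was -1.50 ± 0.0842 (SE, limma adjusted p = 4.67e-07). Part of this gene is shared: 159 of its exon bases, or 10.4%, lie in Slc5a3 on the same strand, which encodes a myo-inositol transporter, and 305, or 19.9%, lie in Gm49711 on the same strand, which is listed at 0 FPKM in every group. Slc5a3 was at 4.33 FPKM with LPS + H-CDs, 4.26 with LPS and 25.5 in control, a log2 fold change of -2.32 for LPS against control and of 0.02 for LPS + H-CDs against LPS. How reads of the shared bases were assigned is not given in the sources used here, and the part of these genes in the result for Mrps6 was not tested.

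Mrps35, described above, had a log2 fold change of -0.96 ± 0.0819 for LPS against control (SE, limma adjusted p = 8.97e-06). Mrpl49, which encodes the large subunit protein mL49, had 16.2, 17.8 and 17.2 FPKM with LPS + H-CDs, 14.1, 16.9 and 15.3 with LPS and 26.5, 28.1 and 30.3 in control. Both groups with LPS overlapped each other and lay wholly below control, with a log2 fold change of -0.84 ± 0.0794 for LPS against control (SE, limma adjusted p = 1.79e-05). Its gene starts 59 bases from Fau on the opposite strand, which encodes a ubiquitin-like protein fused to a cytosolic ribosomal protein and had a log2 fold change of 0.18.

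Mrpl34 and Mrpl18 encode bL34m and uL18m, proteins of the large subunit with bacterial counterparts. Mrpl34 had 46.8, 33.4 and 30.1 FPKM with LPS + H-CDs, 27.8, 36.6 and 35.0 with LPS and 50.2, 58.8 and 64.0 in control (log2 fold change for LPS against control -0.78, limma adjusted p = 0.00322). Mrpl18 had 28.0, 25.9 and 20.9 FPKM with LPS + H-CDs, 22.8, 21.3 and 24.9 with LPS and 39.1, 34.2 and 48.0 in control (-0.78, limma adjusted p = 0.00104). In both genes all libraries with LPS lay below all control libraries. Of the exon bases of Mrpl18, 10.1% are shared with Tcp1 on the other strand, a chaperonin gene with a log2 fold change of 0.34.

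Mrpl42, whose protein mL42 has no bacterial counterpart, had 8.21, 14.7 and 14.3 FPKM with LPS + H-CDs, 13.3, 13.9 and 14.5 with LPS and 22.2, 24.2 and 25.4 in control. LPS + H-CDs replicate 1 was the lowest library here. The log2 fold change for LPS against control was -0.74 ± 0.177 (SE, limma adjusted p = 0.00577). Mrpl12 encodes bL12m, the counterpart of the bacterial stalk protein that contacts translation factors. It had 41.8, 35.0 and 34.2 FPKM with LPS + H-CDs, 35.9, 37.5 and 41.4 with LPS and 55.6, 58.5 and 69.3 in control (log2 fold change -0.66, limma adjusted p = 5.59e-04). Mrps12, encoding uS12m of the decoding centre, was at 10.1 ± 1.74 FPKM with LPS + H-CDs, 10.5 ± 0.775 with LPS and 14.7 ± 1.38 in control (SD, n = 3 each), a difference of -0.45 in log2 for LPS against control (limma adjusted p = 0.00916).

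**Figure D2:**
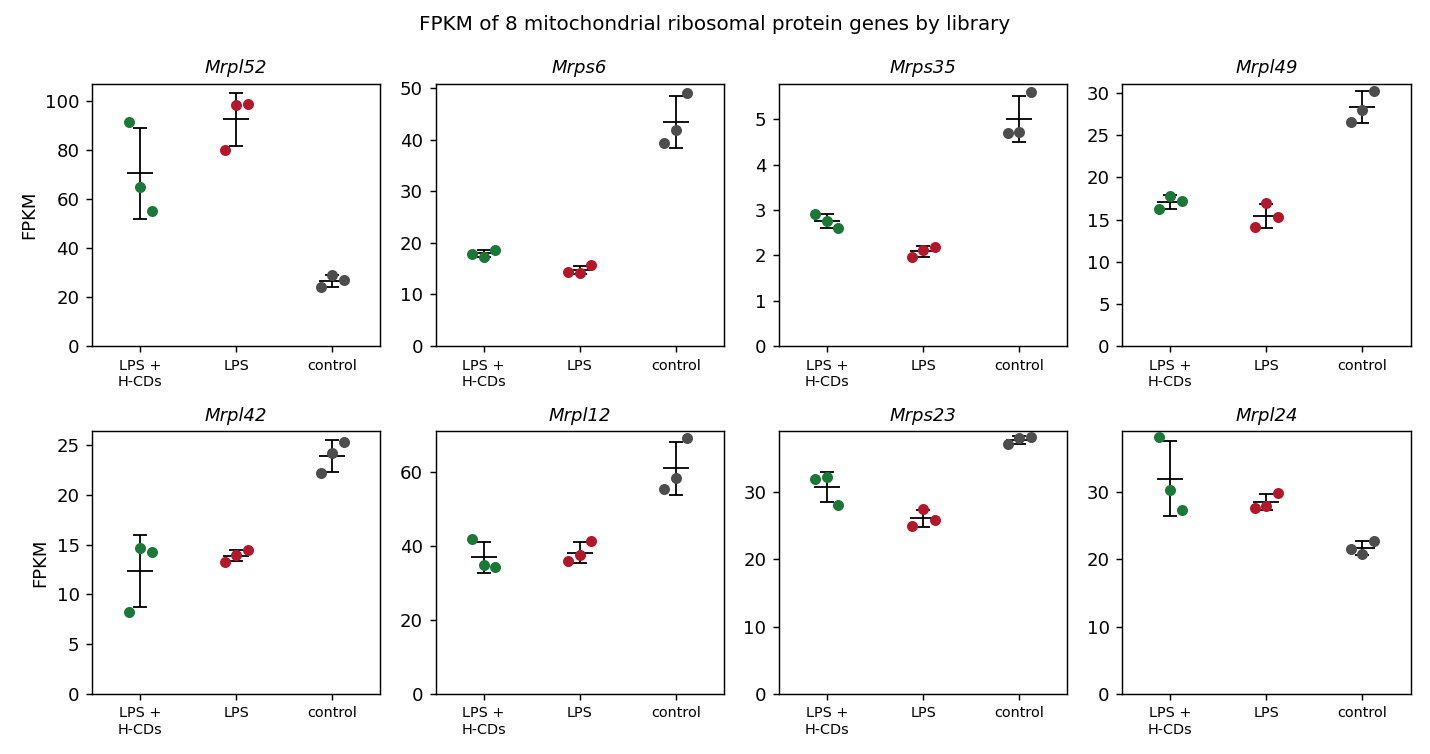
FPKM (y axis, from 0) of 8 genes in the single libraries (points) of the LPS + H-CDs, LPS and control groups, with the mean and SD of each group (n = 3). In Mrps6, Mrps35, Mrpl49, Mrpl42, Mrpl12 and Mrps23 the control libraries lie above all others, and in Mrpl52 and Mrpl24 below them; the LPS + H-CDs libraries run from 55.3 to 91.3 FPKM in Mrpl52 and from 8.21 to 14.7 in Mrpl42.

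To show what sequence lies at the starts of genes with large changes, promoters are given for Mrpl52, which rose, and for Mrps6, Mrpl49 and Mrpl34, which had the lowest log2 fold changes for LPS against control among members with an entry (RefSeq, GRCm38.p6, 250 bases before to 50 after the annotated start, 5′ to 3′ on the strand of the gene). Capitals mark an exact match, on either strand, to 1 of the motifs GCGCATGC (NRF1), CCGGAAGT (GABPA and other ETS factors), AAGATGGC (YY1) and CACGTG (E-box, bound by MYC).
Mrpl52 (chr14:54426659-54426958, plus strand): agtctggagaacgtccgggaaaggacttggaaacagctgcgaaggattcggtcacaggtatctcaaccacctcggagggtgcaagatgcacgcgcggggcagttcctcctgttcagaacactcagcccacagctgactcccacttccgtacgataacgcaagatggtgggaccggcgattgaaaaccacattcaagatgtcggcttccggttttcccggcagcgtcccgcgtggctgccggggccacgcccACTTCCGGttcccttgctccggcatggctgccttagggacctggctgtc
Mrps6 (chr16:92058086-92058385, plus strand): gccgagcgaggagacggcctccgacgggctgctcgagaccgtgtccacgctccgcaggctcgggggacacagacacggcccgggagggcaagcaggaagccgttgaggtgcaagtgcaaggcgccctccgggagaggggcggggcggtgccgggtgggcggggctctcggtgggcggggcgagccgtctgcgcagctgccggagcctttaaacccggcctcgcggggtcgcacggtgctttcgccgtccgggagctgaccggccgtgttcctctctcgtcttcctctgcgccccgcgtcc
Mrpl49 (chr19:6057706-6058005, minus strand): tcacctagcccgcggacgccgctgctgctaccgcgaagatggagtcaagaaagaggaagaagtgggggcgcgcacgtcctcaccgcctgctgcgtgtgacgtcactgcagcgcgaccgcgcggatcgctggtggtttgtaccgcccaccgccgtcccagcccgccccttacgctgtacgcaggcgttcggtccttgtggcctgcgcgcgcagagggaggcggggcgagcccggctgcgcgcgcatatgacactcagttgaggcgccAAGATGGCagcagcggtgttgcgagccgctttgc
Mrpl34 (chr8:71464676-71464975, plus strand): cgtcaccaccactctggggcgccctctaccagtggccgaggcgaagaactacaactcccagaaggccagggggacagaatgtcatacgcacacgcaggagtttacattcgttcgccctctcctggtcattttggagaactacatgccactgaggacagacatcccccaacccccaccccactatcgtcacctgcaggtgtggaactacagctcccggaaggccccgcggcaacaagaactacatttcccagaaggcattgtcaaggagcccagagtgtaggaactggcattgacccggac
With the annotated start as base 1, Mrpl52 holds the reverse of the ETS motif from base 2, and Mrpl49 holds the YY1 motif from base 17. Mrps6 and Mrpl34 hold none of the motifs in this window. Promoters were matched for 69 of the 78 members, in 75 windows, and Mrps35 was not matched. The NRF1 motif was in 8 of these windows (10.7%) and in 2.73% of 32544 promoters of all genes. The ETS motif was in 12 of the 75 windows and in 3.92% of all promoters, the YY1 motif in 12 and 2.77%, and the E-box in 7 (9.33%) and 7.17%. The NRF1, ETS and YY1 windows belong to 8, 12 and 12 genes, and the E-box windows to 5 genes, as 3 of them are overlapping windows of Mrpl2. Both strands were searched, overlaps between motifs were not removed, and windows of 1 gene can share bases. Median GC content was 58.7% in the members' windows and 53.0% in all promoters, so the groups of promoters also differ in base composition. NRF1, GABPA and YY1 are known as factors of nuclear genes for mitochondria, but a match of letters shows no binding.

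Gene pairs that start close together on opposite strands were common among the members. Another protein-coding gene started within 1000 bases on the other strand for 33 of 78 members (42.3%), against 10.9% of the 21951 protein-coding genes of GENCODE M21. Some of these pairs join a gene of the mitoribosome with another mitochondrial gene. Mrpl36 starts 29 bases from Ndufs6, a gene of respiratory complex I, and Mrps12 starts 172 bases from Sars2, the mitochondrial seryl-tRNA synthetase. Mrps11 and Mrpl46, which encode a small and a large subunit protein, start 412 bases apart. Where strands were not kept apart in counting, reads in overlapping ends of such pairs cannot be told apart. Over all overlaps, on either strand and not only in such pairs, 13 members share at least 10% of their exon bases with other protein-coding genes. Some of these overlaps, such as that of Mrps24 with Urgcp, are on the same strand.

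Of the members higher with LPS than in control, those after Mrpl52 had small fold changes. Mrpl24, encoding uL24m, had 38.2, 30.4 and 27.4 FPKM with LPS + H-CDs, 27.6, 28.0 and 29.9 with LPS and 21.5, 20.8 and 22.8 in control. All control libraries were lower than all others, with a difference of 0.38 in log2 for LPS against control (limma adjusted p = 0.0139). The log2 fold change was 0.37 for Mrpl39, 0.30 for Mrps31, 0.26 for Mrpl3 and 0.24 for Mrps10 (limma adjusted p of 0.00228 to 0.0223). All of these calls ended in TPM and by total reads, and in TPM the sign turned for Mrps31 (-0.0061), Mrpl3 (-0.074) and Mrps10 (-0.071). The call of Mrpl3 also ended without LPS replicate 1 or 3 or control replicate 1 or 2 (adjusted p of 0.0621 to 0.0744), and that of Mrps10 without LPS replicate 1 or control replicate 2 or 3 (0.0531 to 0.0650). Mrpl52, by contrast, stayed higher under all 17 alternatives, with a log2 fold change of 1.43 to 1.85.

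The called genes were spread over both subunits. In the large subunit 4 of 50 tested genes were higher with LPS and 17 lower, and in the small subunit 2 of 26 were higher and 7 lower. Over all tested genes, as deposited, 28.8% were called higher and 26.8% lower. The share of small subunit genes called lower (26.9%) is near the latter. By descent, 3 of 46 genes with a bacterial counterpart were higher and 15 lower, and 3 of 30 without one were higher and 9 lower. These shares were not tested against each other. In TPM, where 48.3% of all tested genes were lower, so were 37 genes of the large and 21 of the small subunit. Mrps30 and Mrps18a were at log2 fold changes of -0.06 and -0.07 (limma adjusted p = 0.544 and 0.626). Mrpl58 was at -0.27 (limma adjusted p = 0.0245), and dropping LPS replicate 1 or control replicate 2 or 3 ended this call, with adjusted p of 0.0673 to 0.0910. Mrps36, which is no ribosomal protein, had 9.16 ± 1.53 FPKM with LPS + H-CDs, 9.65 ± 0.708 with LPS and 14.1 ± 1.67 in control (SD, n = 3 each), a difference of -0.50 in log2 (limma adjusted p = 0.00582).

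Under all 17 alternatives 20 of the 25 genes, namely Mrpl2, Mrpl12, Mrpl18, Mrpl19, Mrpl28, Mrpl34, Mrpl36, Mrpl41, Mrpl42, Mrpl43, Mrpl49, Mrpl51, Mrps6, Mrps12, Mrps15, Mrps23, Mrps24, Mrps26, Mrps35 and Mrps36, were called lower with LPS than in control. Mrpl2 was at 49.8 ± 4.43 FPKM with LPS + H-CDs, 44.2 ± 4.98 with LPS and 67.1 ± 6.67 in control (SD, n = 3 each), and Mrps26, encoding mS26, at 17.5 ± 3.12 with LPS + H-CDs, 16.3 ± 1.32 with LPS and 25.6 ± 3.04 in control. The log2 fold changes for LPS against control were -0.59 and -0.62 (limma adjusted p = 0.00104 and 0.00269). The other 5 were called lower in 9 (Mrpl55), 13 (Mrpl9 and Mrpl58) or 14 (Mrpl4 and Mrpl14) of the 17. Mrpl4, Mrpl9, Mrpl14, Mrpl19, Mrpl28, Mrpl36, Mrpl41, Mrpl43, Mrpl51, Mrpl55, Mrps15 and Mrps24 are not described singly, with log2 fold changes from -0.60 (Mrps24) to -0.25 (Mrpl19). Mrps21, the gene of the small subunit with the highest mean FPKM, had 38.4, 42.6 and 50.1 FPKM with LPS and 50.4, 69.3 and 60.6 in control, with the highest LPS library just under the lowest control library, and was not called (log2 fold change -0.45, limma adjusted p = 0.0581). It was called lower in 9 of 17 alternatives, among them DESeq2 and edgeR.

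Short genes held many of the lower calls. Of 21 members under 1500 bases in the deposited table, 12 were lower with LPS and 1, Mrpl52, was higher, with a median log2 fold change of -0.45. Of 27 members from 1500 to under 3000 bases, 7 were lower and 2 higher (median -0.09), and of 29 members of 3000 bases or more, 6 were lower and 3 higher (median -0.07). Over all tested genes the shares called lower were 14.3%, 33.3% and 28.7% in the same bins, with medians of 0.06, -0.06 and 0.04. Across the 77 members, which are not independent, Spearman's rho between length and log2 fold change was 0.26, and over all tested genes it was 0.05. The bins were set after these values were seen, and the relation was not tested. In TPM the counts lower were 17, 22 and 20 in the 3 bins, with medians of -0.80, -0.43 and -0.41. On that scale 48.3% of all tested genes were lower, with a median of -0.30, and shares of all genes by bin were not computed.

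**Figure D3:**
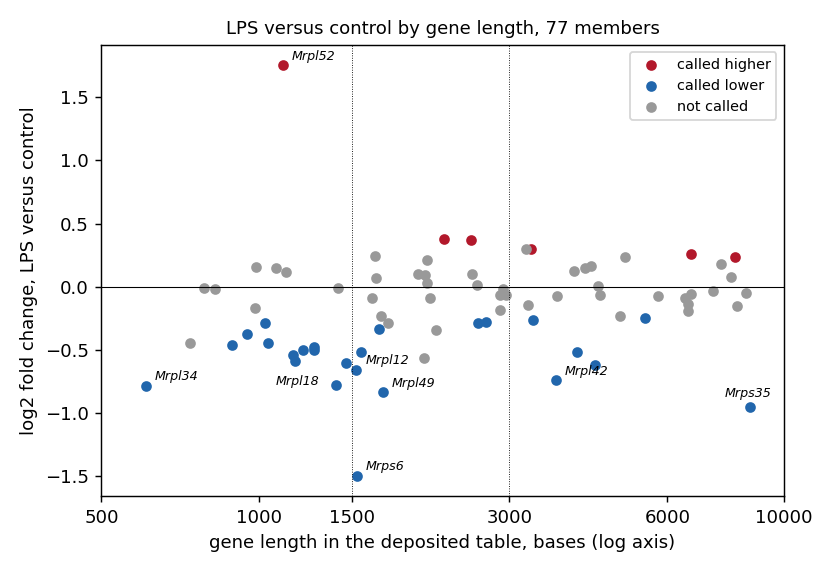
Log2 fold change of LPS versus control (y axis, log2(FPKM + 1) scale) against gene length in bases (x axis, log axis) for the 77 tested genes, with bins parted by dotted lines at 1500 and 3000 bases. Of 21 genes left of the first line 12 are called lower, and Mrpl52 is the only one there called higher.

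Summed over all members, FPKM reached 1509, 1463 and 1369 in the LPS + H-CDs libraries, 1348, 1420 and 1545 with LPS alone, and 1528, 1653 and 1759 in control. LPS replicate 3 lay above control replicate 1, so LPS and control overlapped, as did LPS + H-CDs and LPS. All LPS + H-CDs libraries lay below all control libraries. As a share of all recovered reads the members took 0.323 ± 0.00825% with LPS + H-CDs, 0.303 ± 0.0191% with LPS and 0.411 ± 0.0266% in control (SD, n = 3 each), and on that scale every control library was above every other. An exact permutation test of 3 libraries against 3 cannot give a 2-sided p under 0.1, so these totals are given with no test. The sum in LPS + H-CDs replicate 1 was the highest of its group, whereas its share of mitochondrially encoded messenger RNA was the lowest of all 9 libraries.

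**Figure D4:**
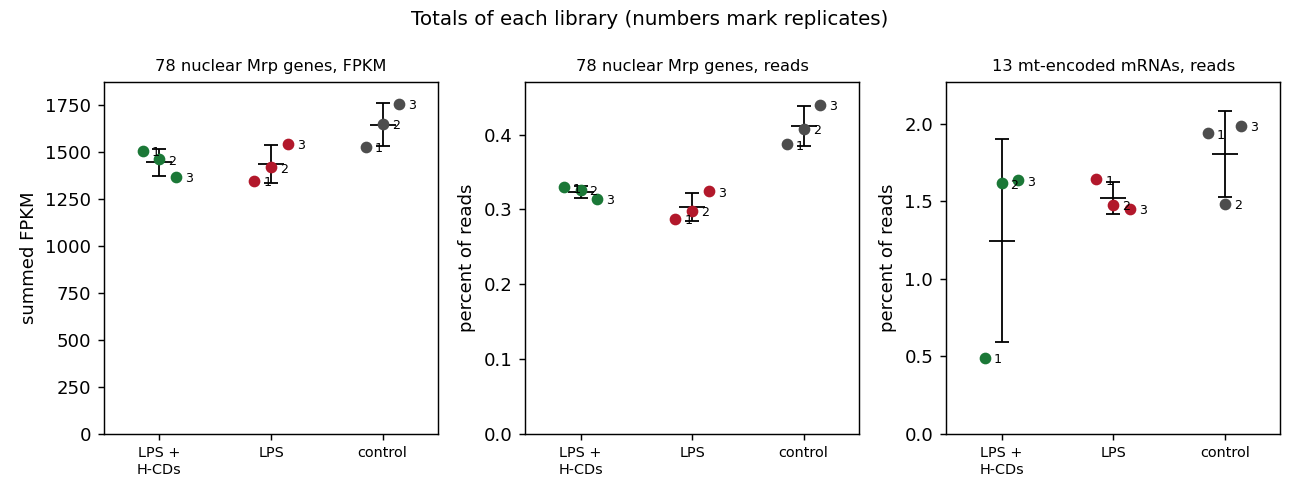
Per-library totals (points, numbered by replicate) with mean and SD (n = 3) for LPS + H-CDs, LPS and control: summed FPKM of the 78 genes, their percent of all reads, and the percent of reads from the 13 mitochondrially encoded messenger RNAs. LPS and control overlap in summed FPKM (1545 against 1528) and not in percent of reads, and LPS + H-CDs replicate 1 stands alone at 0.490% in the last panel.

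The comparison of LPS + H-CDs with control shares its libraries with both others. There 7 members were called higher and 23 lower, against 26.7% and 25.4% of all tested genes, and without LPS + H-CDs replicate 1 the counts were 8 and 25, against 25.8% and 24.7%. The median log2 fold change of the members was -0.11. Mrpl52 (1.34) was highest and Mrps6 (-1.23) lowest. Calls made here and not for LPS against control included Mrps18c, encoding a small subunit protein (0.34, limma adjusted p = 0.0312), Mrpl17 (0.26, 0.0490) and Mrps11 (-0.61, 0.0245). Mrpl17 was called higher in 5 of 17 alternatives and Mrps18c in 8 of 17, and without LPS + H-CDs replicate 1 both calls ended (limma adjusted p = 0.144 and 0.0530). The call of Mrps11 ended without control replicate 2 or 3 (limma adjusted p = 0.0690 and 0.0749) and with no filter, and without LPS + H-CDs replicate 1 its log2 fold change was -0.35 and it was still called. Mrps11 had 5.02, 9.98 and 8.78 FPKM with LPS + H-CDs and 10.7, 12.7 and 13.2 in control, with LPS + H-CDs replicate 1 the lowest. The number called higher was 4 without LPS + H-CDs replicate 2 or control replicate 1 and 3 without control replicate 2. Without LPS + H-CDs replicate 1 the higher call of Mrpl3 and the lower calls of Mrps2, Mrpl23 and Mrpl55 ended as well. Newly called higher without it were Mrpl30, Mrpl32, Mrpl35 and Mrps18b, and newly lower Mrpl9, Mrpl28, Mrpl51, Mrps21 and Mrps34.

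A few mitoribosomal proteins have other gene names. Of the small subunit genes Dap3, Ptcd3, Chchd1 and Aurkaip1, 0 of 4 were called by limma in LPS against control or in LPS + H-CDs against LPS, with log2 fold changes of -0.22 to 0.0043 for LPS against control and of -0.16 to 0.11 for LPS + H-CDs against LPS. For LPS against control 1 of them was lower at an unadjusted p under 0.05 and was called lower by DESeq2 and edgeR. Chchd1 was called lower in LPS + H-CDs against control (-0.28, limma adjusted p = 0.0257), a call that ended in 6 of 17 alternatives, among them without LPS + H-CDs replicate 1 or 3 or any control library (adjusted p of 0.0511 to 0.0690). Gadd45gip1, a gene of the large subunit, was at 5.56 FPKM with LPS + H-CDs, 5.16 with LPS and 7.08 in control, a difference of -0.39 in log2 for LPS against control (limma adjusted p = 0.00317).

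Genes that serve the mitoribosome moved both ways with LPS, as did the 28.8% called higher and 26.8% called lower over all tested genes. Of 26 tested genes for mitoribosome assembly and ribosomal RNA modification, 5 were higher and 9 lower than in control (median log2 fold change -0.09). Rbfa, a factor of small subunit maturation, was at 19.6 FPKM with LPS + H-CDs, 16.6 with LPS and 42.8 in control (log2 fold change for LPS against control -1.32). Mpv17l2 and Mettl17, both linked to assembly, were also lower (-1.27 and -0.82), and the helicase gene Ddx28 was higher (1.02). The limma adjusted p of these genes was at most 1.76e-05. Of 16 translation factor genes, 2 were higher and 5 lower (median -0.16), among them Rmnd1 (-1.02), Oxa1l (-0.64), which inserts new proteins into the inner membrane, Taco1 (-0.54), an activator of Mt-Co1 translation, and Guf1 (-0.55), with limma adjusted p of at most 7.65e-04.

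Of 20 genes for charging mitochondrial transfer RNAs, 1 was higher and 9 lower with LPS than in control (median -0.22). Over all tested genes 28.8% were called higher and 26.8% lower. Vars2, the valyl-tRNA synthetase, was at 5.13 FPKM with LPS + H-CDs, 4.12 with LPS and 8.91 in control (log2 fold change for LPS against control -0.95, limma adjusted p = 4.32e-06), and Cars2 and Gatc, for other steps of the same kind, were at -0.84 and -0.51. Of 18 genes for mitochondrial DNA and RNA synthesis and processing, 4 were higher and 3 lower (median -0.05). These shares, 22.2% and 16.7%, lie under those of all tested genes. Pnpt1, the RNA-degrading polynucleotide phosphorylase, was at 41.4 FPKM with LPS + H-CDs, 48.6 with LPS and 18.7 in control (log2 fold change for LPS against control 1.33, limma adjusted p = 3.05e-06), and Hsd17b10, a subunit of mitochondrial ribonuclease P, at -0.72 (2.50e-05). Of the 13 messenger RNAs of the mitochondrial genome, limma, DESeq2 and edgeR called 0 either way in LPS against control. The same held in LPS + H-CDs against LPS. At an unadjusted p under 0.05 limma had 0 in both comparisons, and DESeq2 had 1 lower in LPS + H-CDs against LPS. In LPS + H-CDs against control, limma called 0, and DESeq2 and edgeR each called 1 lower. In every comparison, 0 of the 13 had an interval of the difference within 1.5-fold either way. The lack of calls therefore does not show unchanged levels. The median log2 fold change of the 13 was -0.13 for LPS against control and -0.55 for LPS + H-CDs against LPS. In the latter, LPS + H-CDs replicate 1 held few of these reads. Without that library the median for LPS + H-CDs against LPS was 0.03.

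Regulators of nuclear genes for mitochondria were called in both directions. Myc, a factor that raises genes of growth, was at 17.5 FPKM with LPS + H-CDs, 34.5 with LPS and 0.125 in control (log2 fold change for LPS against control 4.98, limma adjusted p = 2.58e-10), a size that depends on the pseudocount. The coactivator gene Ppargc1b was at 2.24 FPKM with LPS + H-CDs, 2.87 with LPS and 6.497 in control (log2 fold change for LPS against control -0.95, limma adjusted p = 1.68e-04). Gabpa and Gabpb1, which encode partner subunits of the ETS factor GABP, were at 0.39 and 0.37 with LPS, calls that ended in TPM and by total reads. In LPS + H-CDs against LPS, 4 of 9 such genes were lower and 0 higher, against 9.05% and 6.54% of all tested genes: Myc (-0.95), the coactivator gene Pprc1 (-0.50), Esrra (-0.46) and Gabpb2 (-0.32). Myc and Pprc1 kept that call under all 17 alternatives, and the calls of Esrra and Gabpb2 ended, among other settings, without LPS replicate 2 or 3 (adjusted p up to 0.106). Gabpb2 also lost its call without LPS + H-CDs replicate 1 (limma adjusted p = 0.0725).

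With H-CDs under LPS, single genes of the other lists were called by small margins, 8 higher and 1 lower, where 6.54% and 9.05% of all tested genes were called. Taco1 was at 11.1 FPKM with LPS + H-CDs and 8.42 with LPS (log2 fold change 0.36, limma adjusted p = 0.0284), Tfam, the packaging protein of mitochondrial DNA, at 16.2 with LPS + H-CDs and 12.4 with LPS (0.35, 0.0459), and Mtg1, a GTPase of mitoribosome assembly, at 7.08 with LPS + H-CDs and 5.52 with LPS (0.31, 0.0237). Tefm, Hsd17b10, Fars2, Vars2 and Mpv17l2 were also called higher and Rpusd4 lower, with adjusted p of 0.0307 to 0.0450. Each of these 9 calls ended without LPS replicate 1, with the adjusted p over all alternatives reaching 0.0786 to 0.180. Without LPS + H-CDs replicate 1 the calls of 7 of them, all but Taco1 and Rpusd4, ended as well (adjusted p of 0.0654 to 0.112).

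The genes whose levels over the 9 libraries were most like the mean of the members were sought among all other tested genes. They were Snrnp25, which encodes a protein of the minor spliceosome (Pearson's r = 0.960 on log2(FPKM + 1) over 9 libraries), Wdpcp (0.956), Alkbh4 (0.952), Uqcr10, a subunit of respiratory complex III (0.945), and Dpy30, a subunit of histone methyltransferase complexes (0.939). These values describe libraries that share their groups and their scaling. Among the members themselves, r with the mean profile of the set ran from -0.86 to 0.93, with a median of 0.59 and 61 of 77 above 0. That mean holds each member's own values, which raises these r by construction. The share of all tested genes with r above 0 was not computed.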

How the data were processed

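Expression was taken as the FPKM values that the authors deposited for 54532 genes in 9 libraries, scaled by gene length and by an adjusted library size. A further table that the authors deposited for 21576 genes held a scaled signal for each library. Its log2 fold changes (LPS + H-CDs over LPS) and p-values, plain and adjusted, are those of the authors per the file headers. The abbreviation CD in its column names was taken to mean H-CDs. Per the submitters' processing notes the build was GRCm38 (mm10). No source used here gives the aligner, the counting tool or the strand setting.

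Multiplied by gene length, 100% of FPKM values came out as whole multiples of a library's smallest step within 0.01. The whole reads so recovered served as counts in alternatives with edgeR 4.0.16 and DESeq2 1.42.0, and all of the 129456 values compared gave the same reads in both deposited tables. Genes with 1 FPKM or more in 3 or more libraries (11707) entered a single limma 3.58.1 fit with an intensity trend on log2(FPKM + 1), with no covariate and 6 residual degrees of freedom (R 4.3.3). Tests were 2-sided, and p-values were adjusted by Benjamini-Hochberg within each of 3 comparisons. A pseudocount of 1 understates changes of low genes. Exon overlaps and gene pairs came from GENCODE M21, in which 99.8% of the gene identifiers were found.

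The members and the lists were chosen with earlier results of these data known. Named genes were up to 8 called members with the highest and 8 with the lowest log2 fold change per comparison, the 3 highest and 3 lowest by mean level, Mrps30, Mrps18a, Mrps36, Mrpl58, Mrpl12 and Mrps12, and up to 4 called genes per list by smallest adjusted p. Settings tried were 17: DESeq2, edgeR, a pseudocount of 0.1, no filter, TPM, total reads, fits of 2 groups only, a replicate block, and leaving out each library. The fit was tested on simulated data with known changes.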

Additional observations from a re-analysis of the deposited data

How the results depend on the processing

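The 17 alternative settings were run for the members' counts and medians, for the counts by subunit, descent, length and list, and for every named gene, but not for library totals, motif counts or correlations. Without any library in turn, members called higher numbered 0 to 2 for LPS + H-CDs against LPS, 4 to 8 for LPS against control and 3 to 8 for LPS + H-CDs against control, and members called lower numbered 0 to 1, 20 to 30 and 18 to 25. For LPS + H-CDs against LPS, members called higher were 0 with no filter on low values, 1 with the 2 groups alone, and 4 in TPM and by total reads, and 2 were lower with DESeq2 (Mrpl52 and Mrpl20). Over all tested genes 7.47% were called higher in TPM and 10.2% by total reads. The members' median of that comparison was 0.11 by total reads, against 0.06 over all tested genes. For LPS + H-CDs against control, 3 members were higher with no filter. In TPM 1 was higher and 57 lower (median -0.42), and by total reads 2 were higher and 44 lower (median -0.30). Over all tested genes 14.1% were higher and 45.6% lower in TPM (median -0.28). By total reads 17.4% of all tested genes were higher and 38.7% lower (median -0.16). For LPS against control, 1 member was higher and 59 lower in TPM (median -0.43), and 1 higher and 52 lower by total reads (median -0.36). For LPS against control the median of the regulators was 0.16 to 0.23 under the other settings and -0.13 to -0.07 in TPM and by total reads, and the members of the large subunit called lower numbered 12 to 20 and 33 to 37. In these scales each library's composition sets its scale by construction.

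Deviations from the group means had correlations of -0.121 to 0.198 in same-numbered libraries and of -0.166 to 0.168 in different-numbered ones. The numbers thus give no clear pairing. Between LPS and control the same-numbered values were 0.198, 0.0617 and 0.0869, and the different-numbered ones ran from -0.166 to 0.0690. Pairing was not tested. With a replicate block, 1 member was higher for LPS + H-CDs against LPS (Mrps6), 8 higher and 26 lower for LPS against control, and 7 higher and 23 lower for LPS + H-CDs against control.

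Values that changed sign were small. In TPM, for LPS against control, these were Mrps31 (-0.0061), Mrpl3 (-0.074) and Mrps10 (-0.071), and for LPS + H-CDs against control Mrpl39 (-0.029), Mrps31 (-0.0083), Mrpl17 (-0.032) and Mrpl3 (-0.054). By total reads they were Mrpl12 (0.030) and Mrps12 (0.015) for LPS + H-CDs against LPS, and Mrpl3 (-0.016) and Mrps10 (-0.014) for LPS against control. With each library left out in turn, the log2 fold change for LPS + H-CDs against LPS ran from -0.13 to 0.20 for Mrps21, from -0.17 to 0.045 for Mrps36, from -0.039 to 0.20 for Mrpl48, from -0.14 to 0.0071 for Mrpl12, from -0.17 to 0.054 for Mrps12 and from -0.012 to 0.11 for Mrps30. It ran from -0.12 to 0.0047 for Mrps30 in LPS against control. For LPS + H-CDs against control it ran from -0.20 to 0.048 for Mrpl48, from -0.078 to 0.015 for Mrpl58 and from -0.040 to 0.014 for Mrps30. The cause of these changes was not tested.

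Groups of 3 libraries and a member's 126 to 2870 reads per library limit what can be seen. The median half-width of the 95% interval of a member's log2 fold change was 0.24.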
